A study of Homo sapiens with 30 samples.

Results

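The genes described here encode the aminoacyl-tRNA synthetases, the enzymes that attach each amino acid to its matching transfer RNA, together with the scaffold proteins of the cytosolic multi-synthetase complex. They were chosen by symbol from a fixed list of 39 genes: 20 cytosolic enzymes or enzyme chains, 3 scaffold proteins (AIMP1, AIMP2 and EEF1E1) and 16 mitochondrial enzymes, whose symbols end in 2. All 39 were among the 18132 entries of the RNA-seq table and 37 had an entry in the PRO-seq table, where EEF1E1 and IARS2 were not found by symbol. After the filter on low counts, 38 members were tested in RNA-seq and 35 in PRO-seq. VARS, the cytosolic valine enzyme, was the member not tested in RNA-seq.

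Charged tRNAs carry amino acids to the ribosome, and human cells keep separate sets of charging enzymes for the cytosol and for mitochondria. Most of these enzymes are encoded by separate nuclear genes for each compartment, whereas GARS and KARS each encode the glycine or lysine enzyme of both compartments. Several cytosolic enzymes assemble with AIMP1, AIMP2 and EEF1E1 (also known as AIMP3) into the multi-synthetase complex, and EPRS joins the glutamate and proline activities in a single chain. MYC is a transcription factor that binds E-box DNA and is known for driving genes of ribosome production, protein synthesis and mitochondria.

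The samples were G401 cells, an established line from a malignant rhabdoid tumor of the kidney, over a range of passages that the labels give alike for all groups. Parental G401 cells were compared with DTMYC cells, in which MYC came from a lentivirus with an N-terminal HA-FKBP12F36V tag and the cells' own MYC gene had been removed with CRISPR-Cas9. dTAG47 is a compound that directs proteins with this tag to degradation. Cells received 500 nM dTAG47 or its solvent DMSO. RNA-seq after 24 h covered parental and DTMYC cells in both treatments, with 3 libraries per group. DTMYC cells alone were used for PRO-seq after 4 h (2 libraries per treatment), for ATAC-seq after 24 h (3 per treatment), and for MYC ChIP-seq after 4 h (2 libraries in DMSO, 3 in dTAG47). The labels do not say whether replicates came from separate cultures or whether DTMYC is a single clone, and the p-values therefore describe the spread among libraries and no more. Parental and DTMYC cells differ in the source, the level and the tag of MYC and in their history of engineering, which cannot be told apart.

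RNA-seq libraries held 27854207 to 54633745 counts, and PRO-seq libraries 18209879 to 23256313 counts in gene bodies and 1216928 to 1632084 in promoter-proximal regions. MYC mRNA averaged 1366.5 CPM (counts scaled to each library's effective size) in DTMYC cells in DMSO and 1410.3 CPM in dTAG47, against 235 CPM in parental cells in either treatment. The compound acts on the protein, so this mRNA does not report the degradation. Summed levels of 4 haematopoietic markers stayed at or under 0.64 CPM in every library, with PTPRC and CD3E at or near 0. The 6 epithelial markers summed to 5099.6 to 5719 CPM in DTMYC cells in DMSO and 5803 to 6551 CPM in dTAG47, nearly all from KRT8 and KRT18, and the part of this difference in the results was not tested.

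One RNA-seq library stood apart. Library 3 of the parental DMSO group correlated with its own group at a mean r of 0.982 across genes, against 0.988 to 0.996 in the other 11 libraries. Among the members that were higher in DTMYC than in parental cells, this library was the highest of the 3 parental DMSO libraries for 13 of 19, and among those that were lower it was the lowest for 14 of 14. Its LARS level was 206 CPM, against 103 and 105 CPM in its group. Counts that rest on it are given below with and without it.

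A few members could not be measured cleanly. VARS had at most 1 read in any library, and VARS2 stayed at or under 0.60 CPM in its tested entry. Both lie in the major histocompatibility region and have further entries on alternative haplotype contigs, so reads could be split between near-identical copies, and both were at 0 in PRO-seq. SARS2 held 3.11 to 6.67 CPM in RNA-seq but 63.1 to 85.6 CPM in PRO-seq gene bodies. In GENCODE, 48.2% of its exon bases are shared with a second protein-coding gene on the same strand, and 29.1% of the AIMP2 exon bases lie opposite EIF2AK1, so counts of both genes are uncertain. The same holds to a lesser extent for EEF1E1, which shares 18.8% with the readthrough gene EEF1E1-BLOC1S5 on its strand, and YARS2, with 18.1% opposite a long non-coding RNA.

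MYC peaks were found within 1000 bases of an annotated start site in both DMSO libraries for 13 of the 39 members, or 33.3%, against 8.47% of 13063 protein-coding genes tested in RNA-seq. These were 7 of 20 cytosolic enzymes (DARS, FARSB, GARS, IARS, KARS, TARS and YARS), 2 of 3 scaffold genes (AIMP2 and EEF1E1) and 4 of 16 mitochondrial enzymes (CARS2, EARS2, MARS2 and NARS2). Library 1 had a peak at 22 members and library 3 at 14, from lists of 4010 and 1519 peaks. The authors' highest scores, which are 10 times the −log10 q of a peak within its list, were 507 for AIMP2 and 483 for IARS in library 1 and 235 for EARS2 and 234 for IARS in library 3. The KARS region was shared with the start of TERF2IP, that of YARS with S100PBP, that of EARS2 with UBFD1 and that of AIMP2 with PMS2, so the peak cannot be assigned to 1 gene of each pair. No test was made of these counts.

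The motif CACGTG, the E-box that MYC with its partner MAX is known to bind, occurred in 8 of the 13 regions, against 62.3% of all 1029 regions that had a peak in both DMSO libraries. In 4 of them it lay within 100 bases of the region's midpoint, as it did in 27.0% of all 1029. Each region spans the overlapping peaks of both libraries. The FARSB motif lay in the library 1 peak alone and the CARS2 motif in the library 3 peak alone. The motif reads the same on both strands. The 30 bases around it are shown from hg19 on the strand of the gene, with the motif in capitals, because they are the letters that these bound regions share.
FARSB (chr2:223521148-223521177, minus strand): ggcaagatctccCACGTGgaggccccaccc
IARS (chr9:95056148-95056177, minus strand): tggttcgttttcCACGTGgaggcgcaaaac
AIMP2 (chr7:6049109-6049138, plus strand): ccgggcgctggcCACGTGcaggtaggagcg
EEF1E1 (chr6:8102529-8102558, minus strand): tacccagctcccCACGTGtctgcgccgcta
CARS2 (chr13:111358848-111358877, minus strand): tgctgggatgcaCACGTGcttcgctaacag
EARS2 (chr16:23568669-23568698, minus strand): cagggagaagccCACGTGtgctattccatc
MARS2 (chr2:198570070-198570099, plus strand): atgcgcctctcaCACGTGctgtcagaacgc
NARS2 (chr11:78285769-78285798, minus strand): agctgccaactgCACGTGgtttctttctgg

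The FARSB and IARS motifs lie between genes. The AIMP2, EARS2 and NARS2 motifs lie in exons of those genes, and those of EEF1E1 and CARS2 in their introns. The MARS2 motif lies outside that gene, in an intron of an overlapping annotated gene without a symbol. The motif's midpoint lay 8 bases before the start of the Ensembl canonical transcript of MARS2 and 13 bases before that of EARS2. EARS2 has 13 annotated starts, so its motif can still lie in an exon of another of its transcripts. DARS, GARS, KARS, TARS and YARS had a MYC peak in both libraries without this motif in the region. In the RefSeq promoter table (GRCh38.p14, 250 bases before to 50 after each start), 33 members had an entry and 4 of them held CACGTG (IARS, CARS2, EARS2 and MARS2), or 12.1%, against 7.43% of 27305 promoters. The related motif CACGCG, counted on both strands, was in 6 of 33, or 18.2%, against 11.4%.

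After 4 h of dTAG47 the 3 peak lists held 408, 7 and 193 peaks, and a MYC peak lay at 6 members (15.4%) in at least 1 of them, against 2.91% of all genes. Library 1 had peaks at FARSB, IARS, YARS, EEF1E1 and EARS2, and library 3 at IARS and AIMP2. All 6 had a peak in both DMSO libraries. Library 2 had none at a member. The read depth behind the lists is unknown, and the DMSO lists were themselves unequal in length, so the loss was not measured per site.

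Open chromatin was present at nearly all members in both treatments. An ATAC-seq peak lay within 1000 bases of a start in every DMSO library for 36 of 39 members (92.3%), against 79.7% of all genes, and in every dTAG47 library for 36, against 81.4%. The exceptions were FARSA, the alpha chain of the cytosolic phenylalanine enzyme, VARS and VARS2. FARSA had a peak in DMSO library 1 (score 27) and dTAG47 library 3 (score 16) alone, although its mRNA was among the most abundant of the members per length. HARS and HARS2, the cytosolic and mitochondrial histidine enzymes, are transcribed in opposite directions from neighbouring starts. They had the same ATAC-seq peak in all 6 libraries and no MYC peak.

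After 24 h of dTAG47 in DTMYC cells, 4 of the 38 tested members (10.5%) fell and none rose at an adjusted p under 0.05 (edgeR's quasi-likelihood test, Benjamini-Hochberg over 13401 genes), against 4.44% of all genes lower and 4.27% higher. They were FARSA, KARS, MARS2 (the mitochondrial methionine enzyme) and YARS2 (the mitochondrial tyrosine enzyme). Changes were small, between 1.24-fold and 1.34-fold. The median log2 change was −0.11 for 19 cytosolic enzymes, −0.24 for 3 scaffold genes and −0.17 for 16 mitochondrial enzymes, beside 0.03 for all genes. In 32 of 38 members the estimate was negative, against 5919 of 13401 genes, and in parental cells it was negative in 31 of 38. In DTMYC cells the 3 dTAG47 libraries lay below all 3 DMSO libraries for 19 of 38 members, against 20.0% of all genes. They lay above them for 2, against 25.2%.

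KARS, the lysine enzyme of both compartments and a member of the complex, measured 351, 347 and 367 CPM in DMSO and 284, 283 and 284 CPM in dTAG47. The groups did not overlap. Its log2 change was −0.32 ± 0.06 (SE, n = 3 per group, adjusted p = 0.0111 by edgeR). FARSA measured 237, 210.3 and 239 CPM in DMSO and 188, 180.4 and 164 CPM in dTAG47. All dTAG47 libraries were lower, with a log2 change of −0.36 ± 0.09 (edgeR adjusted p = 0.0239). Its partner FARSB, which forms the same enzyme, changed by −0.23 ± 0.15 (edgeR adjusted p = 0.404).

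**Figure D1:**
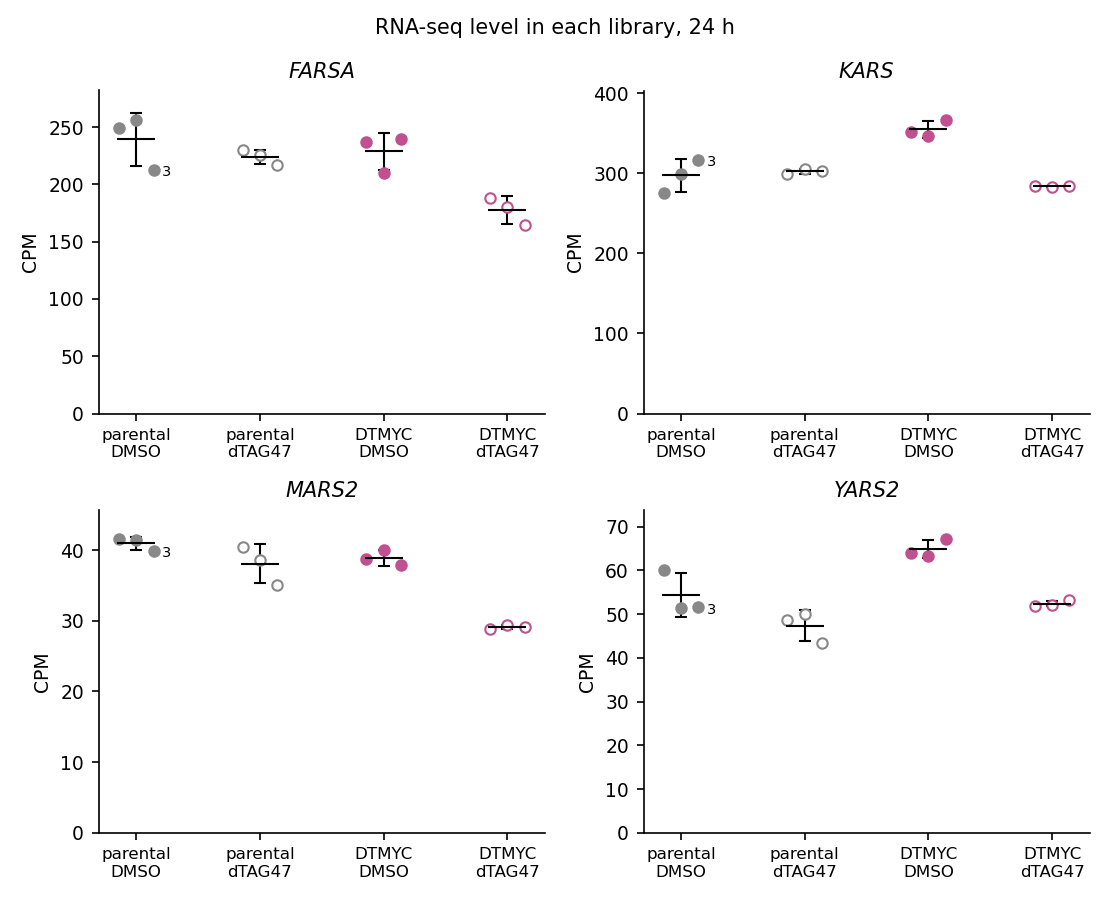
RNA-seq level (CPM, from 0) in each of the 12 libraries for the 4 members that fell in DTMYC cells. Points are libraries, filled for DMSO and open for dTAG47, bars are the mean ± SD of 3 libraries, and the number marks parental DMSO library 3. In DTMYC cells every dTAG47 point lies below every DMSO point, for MARS2 at 28.8 to 29.4 CPM against 37.9 to 40.03 CPM.

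MARS2 measured 38.7, 40.03 and 37.9 CPM in DMSO and 28.8, 29.4 and 29.1 CPM in dTAG47. The gap between groups was larger than the spread within either, with a log2 change of −0.42 ± 0.08 (edgeR adjusted p = 0.00696). It stayed past the threshold in all 17 alternative fits, with adjusted p up to 0.0413. YARS2 measured 63.9, 63.3 and 67.1 CPM in DMSO and 51.9, 52.1 and 53.1 CPM in dTAG47, again without overlap, at −0.31 ± 0.09 (edgeR adjusted p = 0.0446). Its call was lost in 12 of 17 alternatives, where the adjusted p reached 0.163.

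GARS, the glycine enzyme of both compartments, had a MYC peak at its start and was nearly level in RNA-seq. It measured 377, 401 and 383 CPM in DMSO and 365, 378 and 373 CPM in dTAG47, which overlap (−0.06 ± 0.06). HARS measured 101, 94.1 and 103 CPM in DMSO and 91.01, 94.6 and 90.2 CPM in dTAG47, with a slight overlap at −0.11 ± 0.08. HARS2 measured 25.5, 24.6 and 24.5 CPM and then 26.01, 26.8 and 24.3 CPM, at 0.05 ± 0.09. Neither histidine enzyme passed the threshold. The highest estimates among the members were 0.15 ± 0.11 for RARS2, the mitochondrial arginine enzyme, and 0.14 ± 0.07 for WARS, the cytosolic tryptophan enzyme, neither of which passed. The lowest, −0.69 ± 0.63, was that of the barely detected VARS2.

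**Figure D2:**
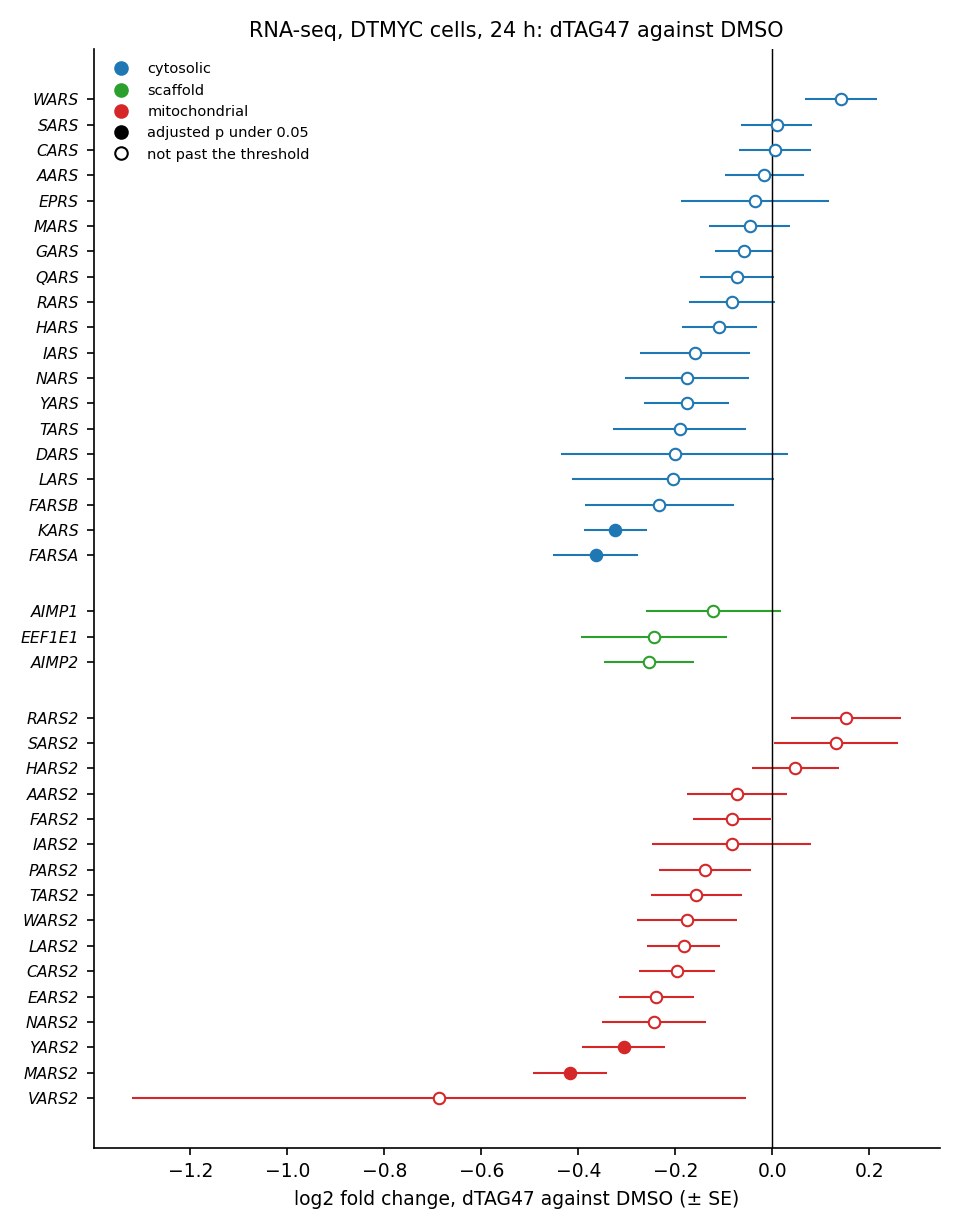
Log2 fold change in RNA-seq of DTMYC cells after 24 h (x axis, dTAG47 against DMSO, bars ± SE) for the 38 tested members by compartment. Filled points passed an adjusted p of 0.05: 2 of 19 cytosolic, 0 of 3 scaffold and 2 of 16 mitochondrial genes, all to the left of 0.

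These counts rest on the spread that the 12 libraries share. Without parental DMSO library 3, 18 of 38 members (47.4%) fell in the same DTMYC comparison, 11 cytosolic or scaffold and 7 mitochondrial, against 16.6% of all genes, and the 4 above were among them (edgeR). A fit of the DTMYC libraries alone called 19 lower, 12 cytosolic or scaffold and 7 mitochondrial, against 19.9%. Leaving out 1 DTMYC library at a time kept 3 members without DMSO library 2 (FARSA, KARS and MARS2), against 2.85% of all genes lower. It kept 2 without DMSO library 1 or dTAG47 library 3 (KARS and MARS2), against 1.36% and 1.53%. It kept 1 without DMSO library 3 or dTAG47 library 1 or 2 (MARS2), against 1.23%, 1.61% and 1.22%. The share of all genes thus fell as well. YARS, AIMP2, EEF1E1, CARS2, EARS2 and NARS2 were among the genes that fell in both larger sets. Without that library AIMP2, a scaffold protein, was at −0.29 ± 0.07 (edgeR adjusted p = 0.00323), FARSB at −0.27 ± 0.06 and EARS2, the mitochondrial glutamate enzyme, at −0.27 ± 0.06.

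Members with a MYC peak in both DMSO libraries had a negative RNA-seq estimate in DTMYC cells in 13 of 13 cases, against 74.0% of all such genes. Their median log2 change was −0.23, beside −0.08 for the 10 members with a peak in 1 library and −0.08 for the 15 with none. Among all genes the corresponding medians were −0.14, −0.04 and 0.07. Of the 13, 2 passed the threshold in the fit of all libraries (KARS and MARS2), or 15.4%, close to the 15.7% of the 1106 genes with a peak in both libraries. Without parental DMSO library 3, 12 of the 13 fell, GARS being the exception, against 47.4% of the 1106 genes. With a peak in 1 library 2 of 10 then fell (LARS and YARS2), or 20.0%, against 28.5% of all such genes. With no peak in either library 4 of 15 fell (FARSA, LARS2, NARS and TARS2), against 10.6% of all such genes. The difference between these groups of members was not tested. In parental cells, in the fit of all libraries, 12 of the same 13 members were negative, against 70.1% of all such genes. Their median there was −0.10.

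Parental cells carry no tagged MYC and serve as the control for the compound. No member was called in dTAG47 against DMSO by edgeR or by DESeq2. Of all genes, edgeR called 0.0224% lower and 0.104% higher, and DESeq2 called 1.00% lower. In the edgeR fit 6 members had an unadjusted p under 0.05, all with negative estimates, against 8.53% of all genes lower. The median log2 change was −0.08 for cytosolic, −0.10 for scaffold and −0.06 for mitochondrial members, beside −0.05 for all genes. The estimate was negative in 31 of 38 members, against 7926 of 13401 genes. KARS measured 275, 299.8 and 317 CPM in DMSO and 299.5, 306 and 303 CPM in dTAG47, which overlap. MARS2 measured 41.5, 41.4 and 39.9 CPM and then 40.5, 38.6 and 35.04 CPM, also overlapping. Without DMSO library 3, RARS (−0.21 ± 0.07) and YARS2 (−0.24 ± 0.08) fell in parental cells (edgeR adjusted p = 0.0297 and 0.0313), when 10.9% of all genes did. In DTMYC cells RARS was at −0.12 ± 0.06 in that fit and did not pass.

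The difference between the responses of the cell lines was tested as an interaction. Its estimate was negative in 20 of 38 members and positive in 18, against 5477 of 13401 genes negative. No member passed by edgeR, against 0.590% of all genes lower in DTMYC and 0.597% higher, and 4 were lower at an unadjusted p under 0.05 (FARSA, KARS, LARS2 and MARS2), against 8.26% of all genes. KARS was nearest, with a difference of −0.35 ± 0.09 and an edgeR adjusted p of 0.078. It was the 1 member of 38 that DESeq2 called, where DESeq2 called 1.90% of all genes lower. Without parental DMSO library 3, edgeR called 4 members with a lower log2 change in DTMYC than in parental cells, against 9.58% of all genes. They were KARS (−0.42 ± 0.08, adjusted p = 0.0016), FARSB (−0.44 ± 0.10), MARS2 (−0.32 ± 0.10) and DARS (−0.32 ± 0.11). Their changes in parental cells in that fit were 0.06 ± 0.06, 0.17 ± 0.07, −0.13 ± 0.07 and 0.09 ± 0.08, in the same order. For YARS2 the difference was −0.11 ± 0.12, so its fall in DTMYC cells was not shown to differ from the parental response.

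PRO-seq counts RNA polymerases engaged on a gene, and its gene-body signal was mostly lower after 4 h of dTAG47, before the RNA-seq time. None of the 35 tested members passed an adjusted p of 0.05 by edgeR or DESeq2 without the replicate number as a block. That edgeR fit called 0% of 13397 gene bodies, and DESeq2 called 0.455% lower. The result with the block, which did call members, is given at the end with its limits. At an unadjusted p under 0.05, 10 members (28.6%) were lower and none higher, against 5.92% of all genes lower and 3.77% higher. These were FARSB, GARS, IARS, KARS, LARS, YARS, AIMP1, AIMP2, EARS2 and NARS2. The estimate was negative in 31 of 35, against 6257 of 13397 genes. Both dTAG47 libraries lay below both DMSO libraries in 20 members (57.1%), against 19.3% of all genes, and above them in 0, against 20.6%. The median log2 change was −0.20 for 19 cytosolic, −0.28 for 2 scaffold and −0.09 for 14 mitochondrial members, beside 0.02 for all genes.

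IARS, the isoleucine enzyme of the complex, measured 474 and 425 CPM in DMSO and 349 and 334 CPM in dTAG47 gene bodies, without overlap. Its log2 change of −0.40 ± 0.09 had the smallest p among the members (unadjusted p = 0.0045, edgeR adjusted p = 0.421). NARS2, the mitochondrial asparagine enzyme, measured 276 and 265 CPM and then 225 and 204 CPM, at −0.33 ± 0.09 (edgeR adjusted p = 0.43). FARSB measured 266 and 231 CPM and then 199 and 175 CPM, at −0.41 ± 0.11 (edgeR adjusted p = 0.43). In all 3 the groups were separate, and none passed the adjusted threshold.

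The 4 members that fell in RNA-seq had negative estimates in gene bodies at this earlier time. KARS gene bodies measured 137 and 112.02 CPM in DMSO and 104 and 86.4 CPM in dTAG47, at −0.39 ± 0.14. FARSA measured 70.5 and 56.2 CPM and then 54.8 and 45.98 CPM, at −0.33 ± 0.15. MARS2, a gene without introns and with few gene-body counts, measured 8.86 and 10.2 CPM and then 7.38 and 5.19 CPM, the lowest estimate among the members at −0.59 ± 0.24. YARS2 measured 31.3 and 27.01 CPM and then 29.4 and 23.2 CPM, which overlap, at −0.15 ± 0.16. None of the 4 passed the adjusted threshold.

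The promoter-proximal signal, which covers polymerases near the start, had fewer counts. Its estimate was negative in 25 of 35 members, against 4913 of 10226 genes. No member passed by edgeR or DESeq2 without the replicate block (0% of 10226 genes by edgeR, 0.00978% lower by DESeq2). At an unadjusted p under 0.05, 5 were lower (FARSA, IARS, TARS, MARS2 and NARS2), against 3.76% of all genes. Of these, IARS and NARS2 were also among the 10 in gene bodies. NARS2 measured 190.4 and 159 CPM in DMSO and 101 and 117 CPM in dTAG47, at −0.67 ± 0.19 (edgeR adjusted p = 0.64). MARS2 measured 87.9 and 72.4 CPM and then 48.8 and 49.0 CPM, at −0.71 ± 0.22 (edgeR adjusted p = 0.661). TARS, the cytosolic threonine enzyme, measured 245 and 213 CPM and then 169 and 167 CPM, at −0.45 ± 0.17 (edgeR adjusted p = 0.678). The groups were separate in these 3 genes.

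Gene-body changes were also set beside the MYC peaks. Of the 12 tested members with a peak in both DMSO libraries all 12 were negative, with a median of −0.28, and 8 had an unadjusted p under 0.05, or 66.7%, against 27.7% of the 1035 such genes tested. With a peak in 1 library the median was −0.05 in 9 members, of which 9 were negative, and with none it was −0.10 in 14, of which 10 were negative. The same medians over all genes were −0.16, −0.05 and 0.06, and the shares of all genes with a negative estimate were 78.2%, 60.1% and 39.0%. LARS and AIMP1 were the members below an unadjusted p of 0.05 without a peak in both libraries. The difference between these sets of members was not tested.

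**Figure D3:**
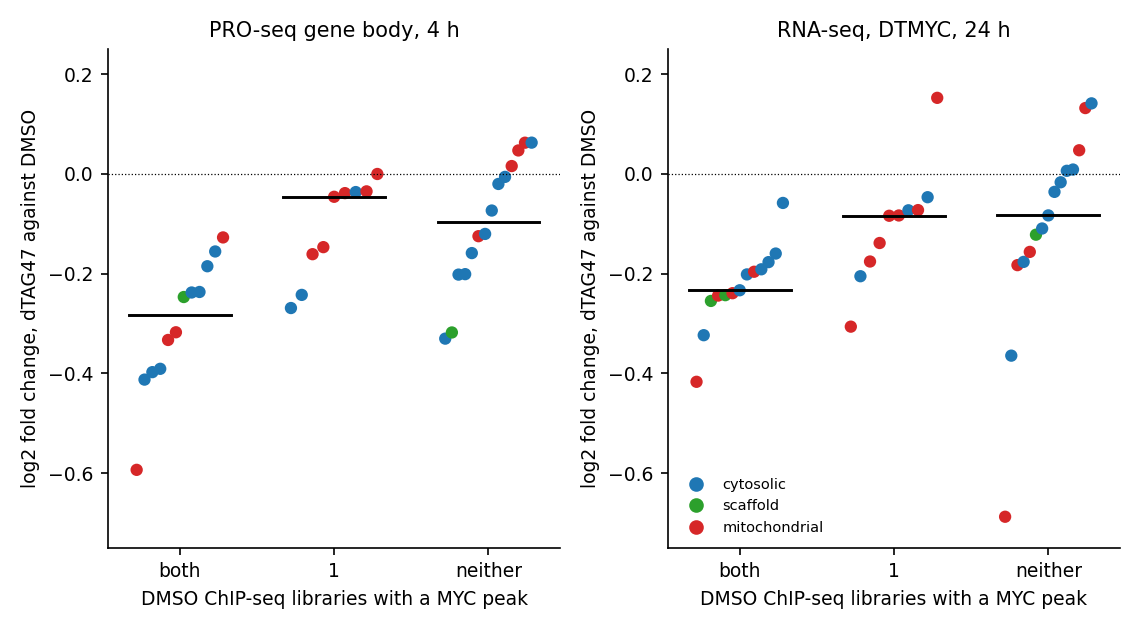
Log2 fold change, dTAG47 against DMSO, in PRO-seq gene bodies at 4 h (left, 35 members) and RNA-seq of DTMYC cells at 24 h (right, 38 members), by the number of DMSO ChIP-seq libraries with a MYC peak at the start. Points are members coloured by compartment and bars are medians, at −0.28, −0.05 and −0.10 on the left and −0.23, −0.08 and −0.08 on the right.

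Without dTAG47, DTMYC and parental cells differed in most members. In DMSO, 33 of 38 passed the threshold, 19 higher and 14 lower in DTMYC (edgeR), against 36.0% of all genes higher and 37.3% lower. The compartments were uneven: 11 of 19 cytosolic enzymes were higher and 6 lower (median log2 difference 0.26), 3 of 3 scaffold genes were higher (median 0.76), and 5 of 16 mitochondrial enzymes were higher and 8 lower (median −0.33), beside a median of 0.00 over all genes. The difference between compartments was not tested. In dTAG47 the counts were 17 higher and 17 lower, against 37.4% and 38.9% of all genes, with medians of 0.27, 0.95 and −0.42.

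EEF1E1 had the largest difference among the members. It measured 10.2, 12.7 and 16.4 CPM in parental and 36.5, 45.02 and 38.01 CPM in DTMYC cells, without overlap, at 1.61 ± 0.16 (edgeR adjusted p = 1.49e-06). DARS, the aspartate enzyme, measured 36.9, 42.8 and 86.0 CPM in parental and 106, 123 and 110.4 CPM in DTMYC cells, at 1.03 ± 0.24 (edgeR adjusted p = 0.00165). LARS, the leucine enzyme, measured 103, 105 and 206 CPM in parental and 259, 271 and 257 CPM in DTMYC cells, at 0.93 ± 0.21 (edgeR adjusted p = 0.00153). In DARS and LARS parental library 3 lay between its group and the DTMYC libraries, and the groups stayed separate. NARS2 measured 28.4, 25.6 and 34.4 CPM in parental and 53.5, 57.1 and 55.7 CPM in DTMYC cells, at 0.91 ± 0.11.

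PARS2, the mitochondrial proline enzyme, was lowest in DTMYC relative to parental cells. It measured 23.1, 23.6 and 19.2 CPM in parental and 10.2, 10.7 and 10.6 CPM in DTMYC cells, without overlap, at −1.07 ± 0.09 (edgeR adjusted p = 5.31e-07). AARS2, the mitochondrial alanine enzyme, measured 109, 94.4 and 80.9 CPM in parental and 62.9, 55.6 and 57.8 CPM in DTMYC cells, at −0.69 ± 0.10. SARS, the cytosolic serine enzyme, measured 243, 247 and 217 CPM in parental and 158, 141 and 155 CPM in DTMYC cells, at −0.64 ± 0.07. SARS2 measured 5.52, 6.67 and 5.23 CPM in parental and 3.82, 3.11 and 3.30 CPM in DTMYC cells, at −0.77 ± 0.12, with the uncertainty of its counts given above. Each of the 3 had separate groups.

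**Figure D4:**
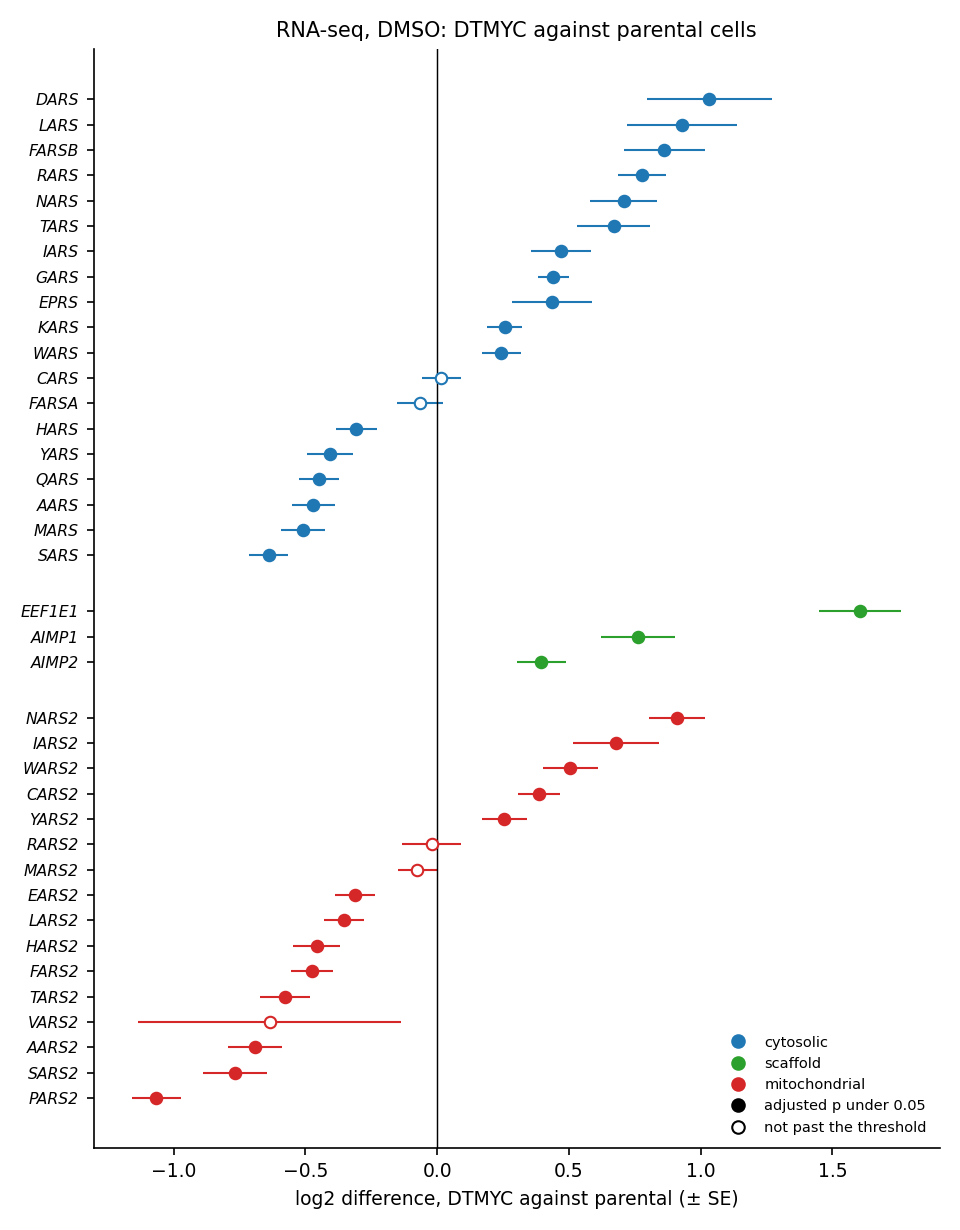
Log2 difference in RNA-seq between DTMYC and parental cells in DMSO (x axis, bars ± SE) for the 38 tested members by compartment, filled where the adjusted p was under 0.05. The 3 scaffold genes lie at 0.40 to 1.61, whereas mitochondrial enzymes range from −1.07 to 0.91.

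Members of the multi-synthetase complex, a grouping made after the values were seen, were higher in DTMYC cells for 9 of 11 and lower for MARS and QARS, the methionine and glutamine enzymes, against 36.0% of all genes higher and 37.3% lower. The 11 cytosolic enzymes outside the complex that were tested divided into 5 higher and 4 lower, near those shares, and the difference between the sets was not tested. KARS, GARS, HARS and HARS2 differed in both directions: KARS was at 0.26 ± 0.06 and GARS at 0.44 ± 0.06, whereas HARS was at −0.31 ± 0.08 and HARS2 at −0.46 ± 0.09, and all 4 passed the threshold (edgeR). After dTAG47 the KARS difference was −0.09 ± 0.06 and no longer passed.

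Levels per kb of the deposited gene length placed the cytosolic enzymes above the mitochondrial ones. In DTMYC cells in DMSO the median was 41.3 CPM per kb over 19 cytosolic enzymes, from 8.32 for CARS to 94.0 for FARSA, and 12.6 over 16 mitochondrial enzymes, from 0.032 for VARS2 to 52.9 for IARS2. The scaffold genes were at 18.9 for EEF1E1, 19.3 for AIMP1 and 40.7 for AIMP2. In 15 pairs that charge the same amino acid in the 2 compartments, with EPRS counted for both of its amino acids, the cytosolic partner was above the mitochondrial one in every library for 13 pairs in parental and 13 pairs in DTMYC cells in DMSO. The exceptions in DTMYC cells were CARS with CARS2 and YARS with YARS2, and in parental cells LARS with LARS2 and TARS with TARS2. The order within a pair can depend on the lengths, which were 8210 bases for YARS and 2152 for YARS2. Before division by length, YARS averaged 221 CPM and YARS2 64.8 CPM in DTMYC cells in DMSO. SARS with SARS2 is not an exception, but the SARS2 counts are uncertain as given above.

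The balance within pairs differed between the cell lines in both directions. The ratio per kb was higher in every DTMYC than in every parental DMSO library for 8 pairs and lower for 6. For leucine it averaged 1.23 (1.18 to 1.31 over 3 libraries) in DTMYC cells, against 0.524 (0.350 to 0.849) in parental cells, where LARS was higher and LARS2 lower in DTMYC cells. For threonine it averaged 3.06 (2.92 to 3.23) against 1.33 (0.982 to 1.92), and for tyrosine 0.896 (0.877 to 0.914) against 1.42 (1.26 to 1.60). Both partners passed the threshold in the same direction for 6 pairs and in opposite directions for 5.

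**Figure D5:**
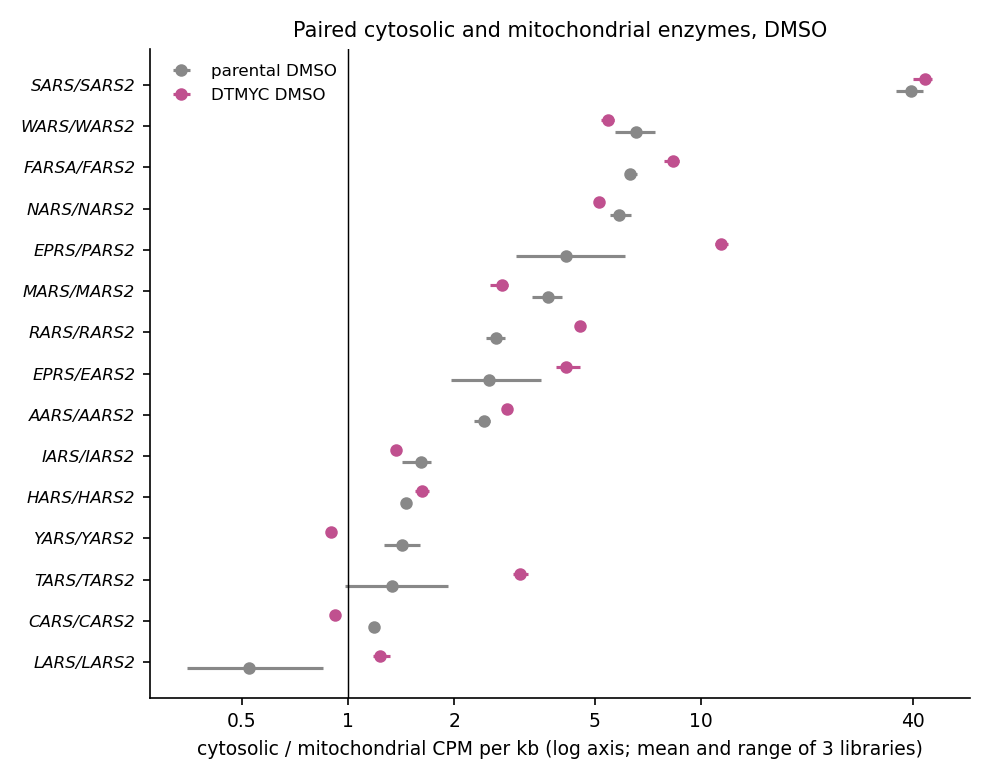
Ratio of the cytosolic to the mitochondrial enzyme, in CPM per kb on a log axis, for 15 pairs in the DMSO groups of RNA-seq. Points are means and bars the range of 3 libraries. TARS/TARS2, LARS/LARS2 and EPRS/PARS2 lie further right in DTMYC cells. YARS/YARS2 lies further left, on the other side of 1 at the deposited lengths. The SARS2 counts are uncertain.

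Other genes of tRNA biology were described from fixed lists in the same DTMYC comparison of dTAG47 with DMSO. Of 39 tested genes for tRNA processing and modification, 12 fell and none rose (median log2 change −0.31, beside 0.03 for all genes), against 4.44% of all genes lower and 4.27% higher, the background of each list here. TRMT61A, the catalytic subunit of a tRNA adenosine methyltransferase, was at −0.63 ± 0.10 (edgeR adjusted p = 0.00468), DUS3L, a dihydrouridine synthase, at −0.51 ± 0.09 and NSUN2, a cytosine methyltransferase, at −0.31 ± 0.06. Among 7 genes that deliver charged tRNA to the ribosome, 2 fell: TUFM, the mitochondrial elongation factor, at −0.47 ± 0.09 and EEF1D, a subunit of the cytosolic exchange factor, at −0.32 ± 0.08. Of 25 genes of the amino acid response, amino acid synthesis and transport, 4 fell and 1 rose. SLC7A5, an amino acid transporter, was at −0.56 ± 0.09, SHMT2, a mitochondrial serine enzyme, at −0.46 ± 0.07 and NUPR1, a stress-response gene, at 0.50 ± 0.10.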

How the data were processed

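The members and gene lists were chosen with earlier results of these data known. Tools named in the submitters' processing notes were cutadapt, Bowtie2, STAR, featureCounts, MACS2, DiffBind and DESeq2, with the build hg19 and with versions and roles not given in the sources used here. The authors deposited raw counts per gene for RNA-seq, raw counts per promoter-proximal region and gene body for PRO-seq, a gene-body density signal that the authors made from the count and a length and that was not used here, and peak lists per sample with a score for each peak. For RNA-seq all 4 groups were fitted together, and for PRO-seq both groups, with edgeR 4.0.16 in R 4.3.3 (filterByExpr, TMM, quasi-likelihood test, Benjamini-Hochberg threshold 0.05). The RNA-seq fit tested 13401 entries. Standard errors are the log2 change divided by the square root of F, and CPM uses TMM-scaled library sizes. DESeq2 1.42.0, other scaling, no filter, a replicate block, the compared groups alone and leaving out each library were alternatives. The scripts were tested on simulated data. Peaks were counted within 1000 bases of any GENCODE v44 start lifted to GRCh37, the build of the peak lists. IgG libraries were not analysed here, and the peak lists carry HA in their names although MYC is the antibody in the labels.

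Values in every library are given for members past the threshold in the DTMYC response or the interaction, the 4 largest differences in each direction between the cell lines, the 3 smallest p in each PRO-seq test, and GARS, KARS, HARS and HARS2. Members of other lists are named by smallest adjusted p among those called, up to 3 per list, and others were chosen after their values were seen. The complex and the pairs of enzymes were also set after the values were seen.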

Additional observations from a re-analysis of the deposited data

How the results depend on the processing

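Of 1207 values of called members under an alternative, 1169 kept their direction and side of the threshold, 38 no longer passed and 0 reversed. Most of these values were differences between the cell lines, where far more members were called. Calls in the DTMYC response held less well: of 17 alternatives, YARS2 lost its call in 12, FARSA in 5 and KARS in 3. In the DTMYC response 4 members were called, against 4.44% of all genes lower, and 19 with the 2 compared groups alone, against 19.9%. When 1 library was left out it was 1 to 18, against 1.22% to 16.6%, of which 18 was without parental DMSO library 3. Leaving out 1 library gave 0 to 2 members in parental cells, against 0 to 10.9% of all genes lower. In the interaction it gave 0 to 4, against 0.0296% to 9.58%, and DESeq2 called 1, against 1.90%. The cause was not tested. Between the cell lines leaving out 1 library gave 31 to 34 in DMSO and 32 to 36 in dTAG47. MYC peaks in both DMSO libraries were at 13 members, at 8 with a score of at least 50, and at 14 to 22 with 1 of the libraries alone. After dTAG47 they were at 6 members and at 2 to 6 with 1 library left out. Windows of 500 and 5000 bases left both counts at 13 and 6.

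With the replicate number as a block, PRO-seq called 20 members in gene bodies, all lower, against 15.9% of all genes lower, and 4 in promoter-proximal regions (FARSA, MARS2, NARS2 and TARS), against 1.65%. The correlation of same-numbered deviations was 0.64 in gene bodies, with only 2 pairs, so the numbers are not shown to pair the libraries. In RNA-seq this correlation was −0.05 to 0.08 in DTMYC and 0.05 to 0.37 in parental cells. There the block called 3 members in the DTMYC response, against 4.36% of all genes lower. The 2 libraries per group in PRO-seq and peak lists of unequal length limit these comparisons.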
